A study of Rattus norvegicus with 10 samples.

Results

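BDNF, the ATP-gated and P2Y receptors and the cation-chloride cotransporters were examined in the lumbar spinal cord of morphine-tolerant rats through 9 genes: Bdnf, Ntrk2, P2rx4, P2rx7, P2rx3, P2ry1, P2ry6, Slc12a5 and Slc12a2. They were chosen by name, as the mRNA probes whose RefSeq accession belongs to 1 of these genes. Of the 9 genes, 8 had a probe, and all 8 were tested among the 12134 genes whose mRNAs passed the filter on dim probes. Ntrk2 was represented by 2 accessions, so that 9 mRNAs were measured, each by 1 probe in 1 spot. Slc12a5, which encodes the neuronal chloride extruder KCC2, was not analysed here.

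All 10 rats were adult male Sprague Dawley rats, with 1 one-colour array per rat. The 5 rats of the morphine tolerance (MT) group, numbered 1 to 5, received intrathecal injections of 10 μg morphine in 10 μl, 2 times a day for 7 days. The 5 rats of the normal saline (NS) group, numbered 6 to 10, received 10 μl of saline on the same schedule. According to the methods, both groups had a further morning injection on day 8 before the lumbar enlargement was collected. The RNA came from the whole enlargement, so that fewer cells of a type and less RNA per cell cannot be told apart.

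BDNF is a secreted neurotrophin that acts on the receptor tyrosine kinase TrkB, the product of Ntrk2. In the dorsal horn, extracellular ATP opens P2X4 channels on microglia, the microglia can release BDNF, and TrkB signalling in neurons can lower KCC2, which raises intracellular chloride and weakens GABA and glycine inhibition. P2X7 needs high ATP and leads to interleukin-1 release, P2X3 is a channel of nociceptive sensory neurons, P2Y1 and P2Y6 are G protein-coupled receptors for ADP and UDP, and NKCC1, the product of Slc12a2, carries chloride into cells.

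The region before 1 transcription start of Bdnf is printed because this gene encodes the released signal of the route and CREB is a known regulator of it. The run holds the 250 bases before the start, 5′ to 3′ on the gene's strand, from RefSeq on GRCr8. Capitals mark TGACG, the core of the site bound by CREB, here read on the opposite strand. It overlapped no match to GGGCGG (the GC box) or TATAAA (the TATA box), both of which were absent from this window on either strand.
Bdnf, chr3:116637608-116637857, plus strand: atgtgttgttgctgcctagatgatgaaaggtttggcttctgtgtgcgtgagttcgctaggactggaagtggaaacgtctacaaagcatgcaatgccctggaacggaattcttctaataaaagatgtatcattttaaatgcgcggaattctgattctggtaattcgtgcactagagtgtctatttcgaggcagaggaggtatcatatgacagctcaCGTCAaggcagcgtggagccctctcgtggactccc

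Bdnf has 6 starts in the RefSeq table used here, and the one shown was the only 1 of the 6 with the CREB core, 35 bases before the start. The window lies inside the span of the gene, after the first of these starts. The Bdnf window held 46.8% G and C and 11 CpG dinucleotides. Over all 33469 windows of this length, 18.2% held TGACG, 30.5% GGGCGG and 12.9% TATAAA, and the medians were 51.2% G and C and 5 CpG dinucleotides. The match describes the letters only. TGACG was also found before the 1 listed start of P2rx4, 69 bases away. The measured Bdnf accession was not assigned to a start, and the promoter of Ntrk2 is named only.

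The arrays were not equal, and the samples are set apart here before the results. By their shared scan times, slide 1 carried MT rats 1, 3, 4 and 5, slide 2 carried MT rat 2 beside NS rats 6, 7 and 10, and slide 3 carried NS rats 8 and 9, so that slide 2 alone held both groups. The share of spots well above background was 81.1% to 83.9% for the MT group, 77.4% to 79.6% for the NS rats of slide 2, and 63.8% and 58.6% for slide 3. The median spot intensity was 42.1 and 29.8 on slide 3 and 74.4 to 101 elsewhere. Each member's difference is therefore given also without slide 3 and within slide 2. The summed linear level of 10 neuronal markers was 305458 to 355785 in MT rats and 324094 to 378920 in NS rats. Nefl, Nefm and Nefh, at mean log2 values of 16.58 to 16.71, weigh most in this sum. With each marker weighted equally, the mean centred over the arrays was 0.05 to 0.17 in MT rats and -0.19 to 0.03 in NS rats. Hoxd10, a gene of lumbar position, was the one measured of 7 such markers. It averaged 11.50 ± 0.75 in MT rats and 11.23 ± 0.40 in NS rats on the log2 scale (SD, n = 5). Hoxd10 ran from 10.27 in MT rat 3 to 12.13 in MT rat 5, a spread wider than the difference of the means. Of the 90 values of the members, 98.9% were well above background, the exception being P2rx7 on NS rat 9.

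None of the member mRNAs passed the threshold of the test across all RNAs. Of the 9 mRNAs, 0 had an adjusted p value below 0.05 in limma, a threshold that 0.197% of all 20284 RNAs passed, and 0 reached the study's criteria of a 1.5-fold linear change and an unadjusted P below 0.05, which 2.74% of all RNAs had (1.74% higher and 0.996% lower in the MT group). The methods' t-test gave 0 by either rule. With the unadjusted P alone, 2 of the 9 were below 0.05 in limma and in the methods' t-test, 1 higher and 1 lower, beside 16.4% of all RNAs (6.85% higher and 9.53% lower). MT and NS values were fully apart for 1 of the 9, beside 5.62% of the RNAs measured on every array. With 9 mRNAs, counts of 2 and 1 are near these background shares. Without slide 3 there were 3 below 0.05, with Bdnf and P2rx7 in the place of P2rx4 beside NM_012731. In that setting 3707 of 20280 RNAs were below 0.05. Log2 intensities below are quantile normalized, and a difference is MT minus NS.

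**Figure D1:**
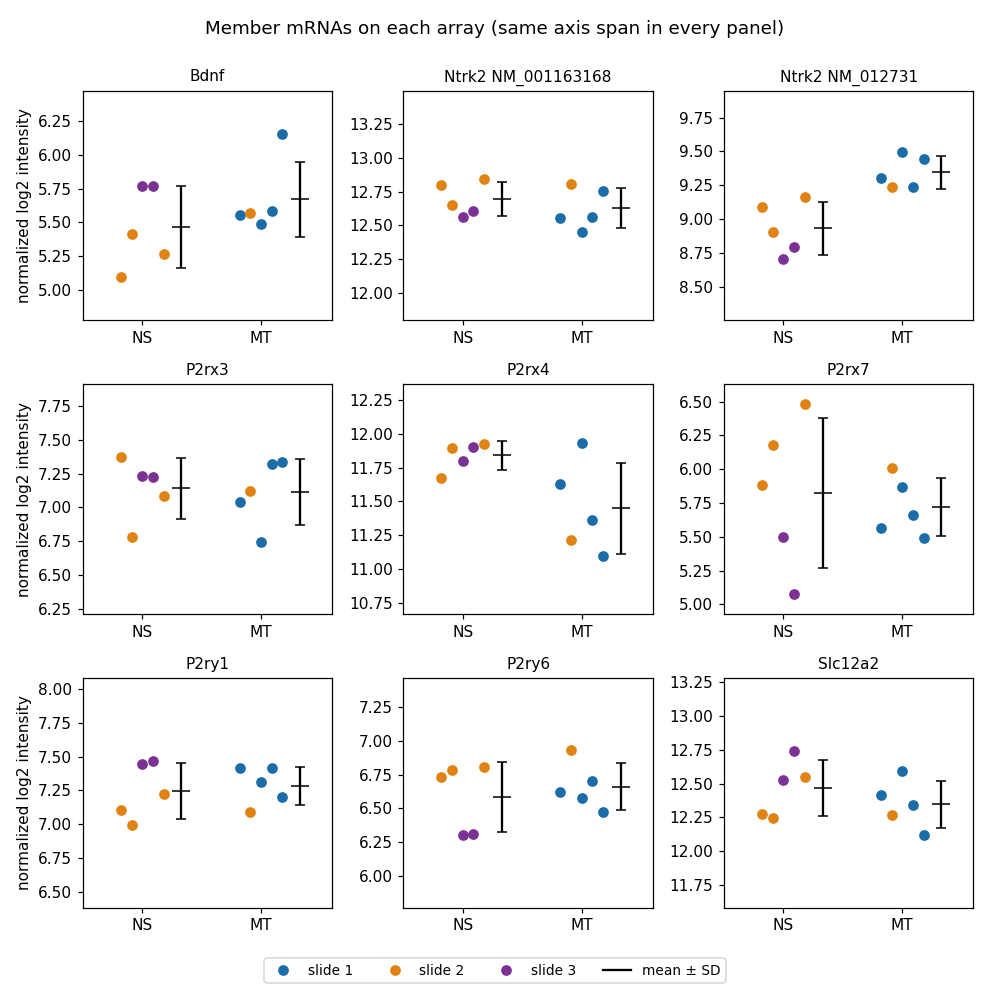
Normalized log2 intensity of the 9 member mRNAs on each of the 10 arrays, 1 panel per mRNA with the same axis span in all, points coloured by slide and black marks for the mean ± SD of 5 rats. Only Ntrk2 NM_012731 has all MT points above all NS points, the MT points of P2rx4 spread over 0.83, and on slide 3 Bdnf is high and P2rx7 and P2ry6 are low within the NS group.

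For Bdnf, no difference beyond the spread between rats was detected. Its log2 intensity was 5.55, 5.57, 5.49, 5.58 and 6.16 in MT rats 1 to 5 and 5.09, 5.41, 5.77, 5.77 and 5.26 in NS rats 6 to 10. MT rat 5 stood above the other 4 MT rats, and NS rats 8 and 9, both on slide 3, were the highest of the NS group and above those 4. The mean was 5.67 ± 0.27 in MT rats and 5.46 ± 0.30 in NS rats (SD, n = 5), a difference of 0.21 with a standard error of 0.17 and a 95% interval from -0.18 to 0.59 (limma, adjusted p = 0.569; exact permutation p = 0.310). The probe was dim, with background-subtracted intensities between 20.6 and 73.7, yet well above background on all 10 arrays. Before normalization NS rats 8 and 9 were the lowest of all 10 rats, at 29.0 and 20.6, with the others at 43.1 to 73.7. Their place at the top of the NS group is thus seen only in the normalized values. Without slide 3 the difference was 0.41, with an unadjusted P below 0.05 (limma, adjusted p = 0.241), within slide 2 the 1 MT rat was 0.31 above the mean of the 3 NS rats, and without MT rat 5 or NS rat 6 the difference was 0.08 or 0.11. Bdnf lies on chromosome 3 at 116619633-116670212.

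Among the other 12104 mRNAs compared, Esd, which encodes esterase D (r = 0.948), and Sema7a, which encodes a semaphorin (r = 0.944), had the patterns most like Bdnf over the 10 arrays, by Pearson's r. With the mean of each slide removed, the coefficients were 0.901 and 0.914. The arrays share their slides and their signal, and the highest of many coefficients are high by selection.

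Ntrk2, at 5560558-5875899 on chromosome 17, was measured through 2 accessions, and the groups were fully apart for NM_012731 alone. NM_001163168 was at 12.56, 12.80, 12.45, 12.57 and 12.75 in MT rats 1 to 5 and at 12.80, 12.65, 12.56, 12.61 and 12.85 in NS rats 6 to 10. The groups covered nearly the same range, and the difference was -0.07 (95% interval -0.27 to 0.14; limma, adjusted p = 0.735; exact permutation p = 0.429), -0.14 without slide 3 and 0.04 within slide 2. NM_012731 was at 9.31, 9.24, 9.50, 9.24 and 9.45 in MT rats 1 to 5 and at 9.09, 8.91, 8.70, 8.79 and 9.16 in NS rats 6 to 10. All 5 MT rats were above all 5 NS rats, and the 2 lowest values were those of slide 3.

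The mean of NM_012731 was 9.35 ± 0.12 in MT rats and 8.93 ± 0.19 in NS rats (SD, n = 5), a difference of 0.42 with a standard error of 0.10, or 1.33 fold (95% interval 0.18 to 0.65). The exact permutation p was 0.00794, the smallest that splits of 5 and 5 arrays can give, but the adjusted p in limma was 0.125. These splits took no account of the slides. Its size exceeded that of 87.4% of all RNAs. The difference was 0.29 without slide 3 (limma, adjusted p = 0.215) and 0.19 within slide 2.

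Ntrk2 gives rise to a full-length receptor with a kinase domain and to truncated receptors without it. Which of these forms the 2 probes detect was not determined here, since probe sequences and positions were not used here. The gap between both accessions on the same array is therefore described as it stands. It was chosen after the values were seen, so no p value is given for it. NM_012731 minus NM_001163168 was -3.28 ± 0.22 in MT rats (-3.57 to -2.95) and -3.76 ± 0.07 in NS rats (-3.86 to -3.68, SD over 5 rats). The gap was smaller on every MT array than on any NS array, by 0.48 on average. Without slide 3 it was smaller by 0.44, and on slide 2 MT rat 2, at -3.57, was closest to the NS rats at -3.75 to -3.68, a difference of 0.15. A gap of this kind shows an unequal difference of the probes, and not which of them stayed the same.

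**Figure D2:**
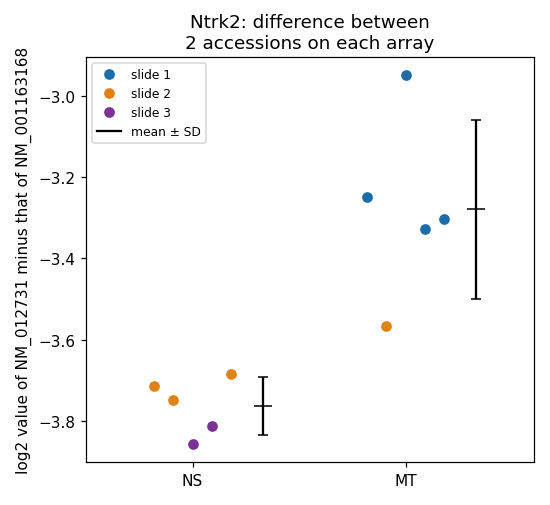
Log2 value of Ntrk2 NM_012731 minus that of NM_001163168 on each array by group, points coloured by slide and black marks for the mean ± SD of 5 rats. The 5 MT arrays lie between -3.57 and -2.95 and the 5 NS arrays between -3.86 and -3.68, with the MT array of slide 2 nearest to the NS arrays.

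P2rx4 was lower in 4 of the 5 MT rats than in any NS rat, but did not pass the adjusted threshold. It lies on chromosome 12 at 39505438-39523349. Its log2 intensity was 11.63, 11.22, 11.93, 11.36 and 11.10 in MT rats 1 to 5 and 11.67, 11.90, 11.80, 11.91 and 11.92 in NS rats 6 to 10. The NS rats lay close together, while MT rat 3 was the highest of all 10 rats and MT rat 5 the lowest, so that the groups overlapped. The means were 11.45 ± 0.34 and 11.84 ± 0.10 (SD, n = 5), a difference of -0.39 with a standard error of 0.15, or 1.31 fold (95% interval -0.73 to -0.06). The unadjusted P in limma was below 0.05, the adjusted p was 0.249 and the exact permutation p was 0.0556.

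The P2rx4 difference was -0.38 without slide 3 (limma, adjusted p = 0.310) and -0.62 within slide 2, where MT rat 2 was compared with 3 NS rats. The unadjusted P was above 0.05 without slide 3, and also without MT rat 2, MT rat 4, MT rat 5 or NS rat 10, with differences of -0.33, -0.37, -0.31 and -0.37 and adjusted p values of 0.329, 0.371, 0.404 and 0.273 in limma. It stayed below 0.05 with any other single rat left out. The largest of these differences was -0.51, without MT rat 3 (limma, adjusted p = 0.117). By Pearson's r over the 10 arrays, the mRNAs most like P2rx4 were Tmbim1 (r = 0.985) and Arrdc2 (r = 0.981). Their coefficients were 0.985 and 0.987 with the slide means removed.

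P2rx7 lies on the same strand of chromosome 12, at 39550531-39594984, 27181 bases from P2rx4, with 1 annotated pseudogene, Rpl32-ps11, between them. Its log2 intensity was 5.57, 6.01, 5.86, 5.66 and 5.49 in MT rats 1 to 5 and 5.88, 6.18, 5.50, 5.08 and 6.48 in NS rats 6 to 10. The NS rats spread more widely than for any other member, with slide 3 at the bottom and NS rat 10 at the top. The difference was -0.11 (95% interval -0.65 to 0.44; limma, adjusted p = 0.851; exact permutation p = 0.690). Without slide 3 it was -0.46, with an unadjusted P below 0.05 (limma, adjusted p = 0.223), within slide 2 -0.17, and without NS rat 10 0.06. The intensities reached no more than 91.1, and the spot of NS rat 9 was not well above background.

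P2rx3, at 90487506-90531315 on chromosome 3, gave 7.04, 7.12, 6.75, 7.32 and 7.34 in the MT rats and 7.37, 6.78, 7.23, 7.23 and 7.09 in the NS rats. The groups covered nearly the same range, and the difference of -0.03 (95% interval -0.34 to 0.29; limma, adjusted p = 0.937; exact permutation p = 0.849) had no settled sign, being 0.03 without slide 3 and 0.04 within slide 2. P2rx3 belongs to sensory neurons, so markers of the dorsal root ganglion were read beside it. Scn10a, Scn11a and Isl2 had mean log2 intensities between 3.26 and 4.69, near the low end of the arrays. Of the 6 markers tested, 1, the peptide gene Calca, had an unadjusted P below 0.05 (0.65, limma, adjusted p = 0.261), beside 16.8% of all mRNAs. Calca and the peptide gene Tac1 were bright, with group means between 11.88 and 13.16. Whether their RNA came from ganglion neurons or from neurons of the cord was not tested. The markers' mean, centred over the arrays, was -0.25 to 0.33 in MT rats and -0.42 to 0.37 in NS rats. Whether roots or ganglia contributed to P2rx3 was not tested.

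For the metabotropic receptors P2ry1 and P2ry6, no difference beyond the spread between rats was detected. P2ry1 (chromosome 2, 147391661-147397870) was at 7.41, 7.09, 7.31, 7.41 and 7.20 in the MT rats and at 7.11, 6.99, 7.45, 7.47 and 7.22 in the NS rats, a difference of 0.04 (95% interval -0.21 to 0.29; limma, adjusted p = 0.887; exact permutation p = 0.730). P2ry6 (chromosome 1, 164707188-164742689) was at 6.62, 6.93, 6.58, 6.70 and 6.47 in the MT rats and at 6.73, 6.78, 6.30, 6.31 and 6.81 in the NS rats, a difference of 0.08 (95% interval -0.22 to 0.37; limma, adjusted p = 0.801; exact permutation p = 0.603). Within the NS group, slide 3 held the 2 highest values of P2ry1 and the 2 lowest of P2ry6. Without slide 3 the differences were 0.18 for P2ry1 (limma, adjusted p = 0.363) and -0.11 for P2ry6 (limma, adjusted p = 0.582), and within slide 2 they were -0.02 and 0.16.

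Slc12a2, at 53546263-53614478 on chromosome 18, was bright on every array, with intensities from 3817 to 6726. Its log2 intensity was 12.41, 12.27, 12.59, 12.34 and 12.12 in MT rats 1 to 5 and 12.28, 12.25, 12.52, 12.74 and 12.55 in NS rats 6 to 10. The groups overlapped, with MT rat 5 the lowest and NS rat 9 the highest. The difference was -0.12 with a standard error of 0.12 (95% interval -0.39 to 0.15; limma, adjusted p = 0.636; exact permutation p = 0.349), -0.01 without slide 3 and -0.09 within slide 2. The interval does not reach the fold of 1.5 in either direction, and the same holds for P2rx3, P2ry1, P2ry6 and NM_001163168 of Ntrk2, whereas for Bdnf, P2rx4, P2rx7 and NM_012731 it does.

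**Figure D3:**
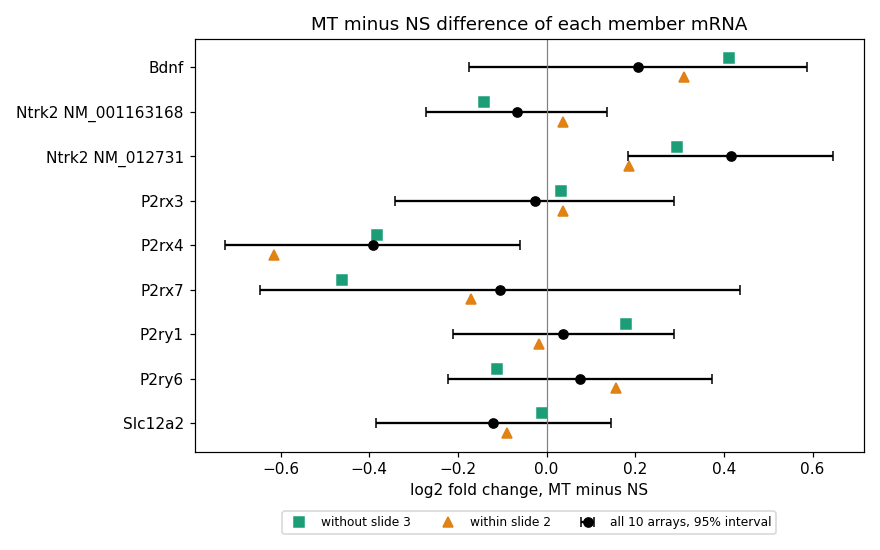
Log2 fold change (MT minus NS) of each member mRNA, with black points and bars for the limma estimate over 10 arrays and its 95% interval, green squares for the estimate without slide 3 and orange triangles for slide 2 alone. Only the intervals of Ntrk2 NM_012731 and P2rx4 leave out 0, and without slide 3 the estimate is -0.46 for P2rx7, -0.11 for P2ry6 and 0.41 for Bdnf.

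The genes around the members were taken from 9 lists, of which 111 genes were tested. None had an adjusted p below 0.05 in limma or in the methods' t-test, 4 met the fold and P criteria (2 in the methods' t-test), all higher in the MT group, and 19 had an unadjusted P below 0.05 (7 higher, 12 lower) in limma and 19 in the methods' t-test. Over the 13373 mRNAs, 0.232% passed the adjusted threshold, 2.6% met the criteria and 16.8% had an unadjusted P below 0.05 (6.37% higher and 10.4% lower), so that these counts are near the background. Without slide 3 all 19 kept their direction and 13 of the 19 kept an unadjusted P below 0.05. The median difference over the 111 genes was -0.01, against -0.02 over all mRNAs tested. The lists are described in turn, by role.

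The neurotrophin family list, with the other receptors and the enzymes that process pro-neurotrophins, had 8 of 11 genes tested, 5 higher and 3 lower, none with an unadjusted P below 0.05 in limma, and a median of 0.03. The largest difference was that of Ntf4, another TrkB ligand, at 0.35 (limma, adjusted p = 0.522). It was 0.12 without NS rat 9, whose spot was not well above background, and -0.02 without slide 3. Ngfr, the p75 receptor that binds pro-BDNF, was 0.19 higher (limma, adjusted p = 0.659), and the proteases Furin and Plat were 0.05 and 0.12 higher (limma, adjusted p = 0.746 and 0.411). The values of these 3 were chosen for their roles after they were seen.

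The TrkB signalling list had 23 of 26 genes tested, with a median of -0.01. In limma, 1 was higher and 2 were lower at an unadjusted P below 0.05. Pik3r1, the regulatory subunit of PI3 kinase, had the largest difference, -0.56 (limma, adjusted p = 0.164). The adaptor gene Shc1 had a difference of -0.34 (limma, adjusted p = 0.154), and Creb1, which encodes CREB, had a difference of 0.35 (limma, adjusted p = 0.290), which was 0.55 without slide 3. Shc1 and Creb1 are named as the remaining genes of the count of 3.

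Of the other P2X and P2Y receptors, 8 of 10 were tested, 3 higher and 5 lower, with 1 higher and 3 lower at an unadjusted P below 0.05 in limma and a median of -0.11, which was 0.15 with scaling to the 75th percentile. P2ry4, among the 3 higher, was well above background on 5 MT arrays but only 1 NS array. The 3 lower ones were P2ry12, P2ry13 and P2ry14, all receptors found on microglia in the central nervous system. P2ry14, the receptor for UDP-glucose, ran from 9.24 to 9.99 in MT rats and from 9.88 to 10.56 in NS rats, a difference of -0.56 (limma, adjusted p = 0.164). P2ry13, an ADP receptor, ran from 5.45 to 5.99 and from 5.73 to 6.27, a difference of -0.41 (limma, adjusted p = 0.188), which was -0.27 without slide 3, with an unadjusted P above 0.05. P2ry12, the ADP receptor that guides microglial processes, ran from 11.12 to 11.25 and from 11.25 to 11.49, so that the groups just failed to overlap, with a difference of -0.18 (limma, adjusted p = 0.259). The 1 higher gene was P2rx6, a channel subunit, at 9.38 to 10.05 in MT rats and 9.18 to 9.31 in NS rats (0.42, limma, adjusted p = 0.159), a difference that was 0.15 within slide 2. P2ry12, P2ry13 and P2rx6 are named as members of the count with an unadjusted P below 0.05, and P2ry4 for its detection.

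P2rx4 and these P2Y receptors are carried by microglia, so the microglial markers stand beside them. Of all 13373 mRNAs tested, 7113 had a lower mean in the MT group. In limma, 10.4% of all mRNAs were lower and 6.37% higher at an unadjusted P below 0.05, and 0.232% passed the adjusted threshold. All 11 markers were measured and all 11 had lower means in the MT group, 8 with an unadjusted P below 0.05 in limma and 1, the receptor gene Gpr34, with an adjusted p below 0.05 (-0.63, limma, adjusted p = 0.0414). The median difference was -0.34, between -0.49 and -0.27 under the alternatives, and -0.27 without slide 3, where 1 of the 8, Cx3cr1, had an unadjusted P above 0.05 (-0.30). Tmem119, a microglial surface protein, had the largest difference, -1.24 (limma, adjusted p = 0.0555), with 11.38 to 12.08 in MT rats and 12.31 to 13.22 in NS rats. The markers' mean, centred over the arrays, ran from -0.45 to -0.02 in MT rats and from -0.03 to 0.45 in NS rats. Their summed linear level ran from 129023 to 154400 in MT rats and from 152178 to 232989 in NS rats, and no defining marker was at 0.

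Array by array, P2rx4 and the marker mean did not always keep the same order. MT rat 3 was the highest of the MT group in both, NS rat 10 was the lowest of the NS group in the marker mean and the highest in P2rx4, and MT rat 5 had the lowest P2rx4 with a marker mean of -0.12. The part of the microglial markers in the P2rx4 and P2Y values was not tested. P2ry12 is itself 1 of the 11 markers, as is Csf1r of the microglial route.

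**Figure D4:**
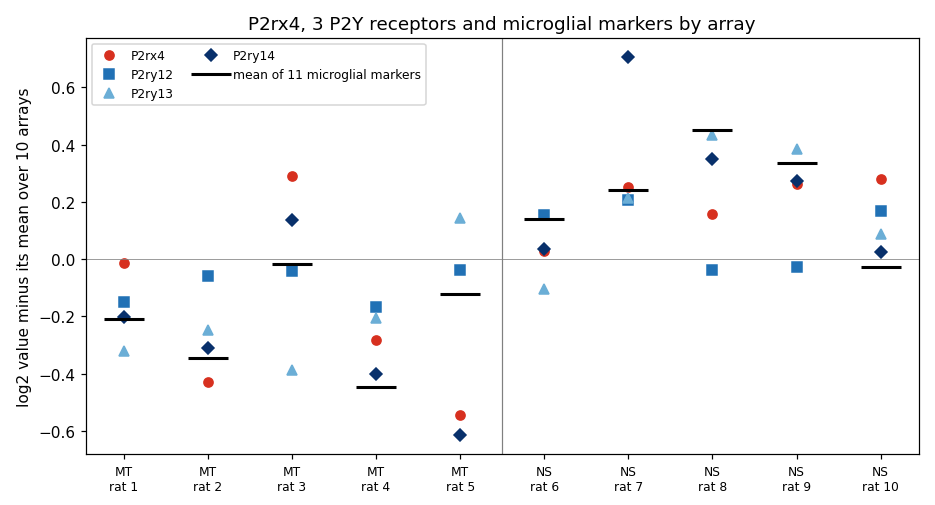
Log2 value minus its mean over 10 arrays for P2rx4, P2ry12, P2ry13 and P2ry14 (coloured points) and for the mean of 11 microglial marker genes (black bars) on each array, MT rats left of the line and NS rats right of it. The marker mean runs from -0.45 to -0.02 in MT rats and from -0.03 to 0.45 in NS rats, and P2rx4 of MT rat 3 lies with the NS arrays.

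Markers of other cell types were read in the same way, beside 6.37% of all mRNAs higher and 10.4% lower at an unadjusted P below 0.05. Of 10 neuronal markers tested, 7 had a higher and 3 a lower mean after morphine, 4 of the higher at an unadjusted P below 0.05 in limma, with a median of 0.18 and a centred mean from 0.05 to 0.17 in MT rats and -0.19 to 0.03 in NS rats. Of 8 astrocyte markers 6 were lower (median -0.07), of 9 oligodendrocyte markers 6 were lower (median -0.17), and in each list 2 were lower at an unadjusted P below 0.05. The 4 motor neuron, 6 endothelial and 6 erythrocyte markers had medians of 0.29, 0.00 and -0.03, none with an unadjusted P below 0.05. Of 5 neutrophil and infiltrating myeloid markers, 3 were higher at an unadjusted P below 0.05 (median 0.56). The other 2, Lcn2 and Ccr2, were lower, at -0.24 and -0.05. The centred mean was -0.01 to 0.51 in MT rats and -0.40 to -0.09 in NS rats. Their summed linear level overlapped, at 3363 to 5178 in MT rats and 2869 to 5926 in NS rats. The part of the neuronal markers in the Ntrk2 values, and of the myeloid markers in the interleukin-1 genes below, was not tested.

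The list of ATP release and breakdown had 16 of 18 genes tested, 13 lower and 3 higher after morphine, with a median of -0.20 that stayed between -0.22 and -0.13 under the alternatives. In limma, 4 were lower and 0 higher at an unadjusted P below 0.05. Slc17a9, the vesicular nucleotide transporter that loads ATP into vesicles, was between 7.37 and 7.62 in MT rats and between 7.66 and 8.17 in NS rats, with no overlap. Its difference was -0.50 with a standard error of 0.10 (limma, adjusted p = 0.0899). The adjusted p of Slc17a9 in limma was 0.0445 without NS rat 10, and it ran from 0.0422 to 0.921 over the alternatives. Its difference was -0.39 without slide 3 and -0.50 within slide 2. The other 3 were Entpd2, an ectonucleotidase that removes ATP (-0.47, limma, adjusted p = 0.238), Ada, adenosine deaminase (-0.39, limma, adjusted p = 0.248), and Gja1, the astrocyte connexin and also 1 of the astrocyte markers (-0.26, limma, adjusted p = 0.195). Without slide 3 these 3 were at -0.27, -0.26 and -0.17, all with an unadjusted P above 0.05, and Gja1 was at -0.13 within slide 2.

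Of the adenosine receptors and transporters, 6 of 7 were tested, 3 higher and 3 lower (median -0.04). Slc28a2, a nucleoside transporter, met the fold and P criteria at 0.59 (limma, adjusted p = 0.288). Its MT values, 8.27 to 9.66, overlapped the NS values, 7.98 to 8.60. The criteria were no longer met by Slc28a2 without MT rat 1, 3 or 4 or without NS rat 6, 7, 9 or 10, with differences between 0.42 and 0.63, nor without slide 3. None of the receptor genes Adora1, Adora2a and Adora2b, at -0.15, 0.06 and -0.13, had an unadjusted P below 0.05 in limma, and they were chosen for their roles after their values were seen.

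The list of the microglial route from P2X4 to BDNF had all 14 genes tested, 9 higher and 5 lower (median 0.06), with 1 higher and 2 lower at an unadjusted P below 0.05 in limma. Among the higher genes, Itga5 and Ccl21 were well above background on 5 MT arrays but only 2 NS arrays. Their differences of 0.31 and 0.44 were 0.08 and -0.08 without slide 3. Fn1, fibronectin, met the fold and P criteria, with 12.55 to 13.67 in MT rats and 12.07 to 12.52 in NS rats (0.59, limma, adjusted p = 0.245). Without MT rat 1 or 3 or NS rat 6 or 10 the criteria were not met by Fn1, at 0.52, 0.40, 0.54 and 0.52. The 2 lower genes were Lyn, a kinase downstream of fibronectin (-0.55, limma, adjusted p = 0.303), and Csf1r, the CSF1 receptor of microglia (-0.34, limma, adjusted p = 0.156), which ran from 15.02 to 15.14 in MT rats and from 15.18 to 15.67 in NS rats. Without slide 3 Lyn was at -0.36, with an unadjusted P above 0.05, and Csf1r at -0.22. The transcription factors Irf8 and Irf5, which drive P2rx4 in microglia, were at 0.17 and -0.32 (limma, adjusted p = 0.601 and 0.498), and the kinase gene Mapk14 at 0.01. Lyn, Csf1r, Irf8, Irf5 and Mapk14 were named after their values were seen, as were Itga5 and Ccl21.

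The P2X7 inflammasome route had 11 of 14 genes tested, 3 higher and 8 lower (median -0.11), with 2 higher and 0 lower at an unadjusted P below 0.05 in limma. The 2 were the interleukin-1 genes Il1a and Il1rn, the latter encoding the receptor antagonist, and both met the fold and P criteria. Il1a was at 9.07, 8.82, 7.92, 9.54 and 7.40 in MT rats 1 to 5 and at 7.54, 7.91, 7.96, 7.42 and 5.57 in NS rats 6 to 10, a difference of 1.27 (limma, adjusted p = 0.278). Il1rn was at 10.65, 10.56, 9.88, 11.11 and 9.55 in the MT rats and at 9.60, 9.62, 9.93, 9.61 and 8.68 in the NS rats, a difference of 0.86 (limma, adjusted p = 0.235). MT rat 4 was the highest and NS rat 10 the lowest for both, and the groups overlapped. Without MT rat 1, 2 or 4 or NS rat 9 or 10, Il1a did not meet the criteria, with differences from 0.84 to 1.31, and Il1rn did not without MT rat 4 (0.67). Il1b and Casp1, chosen for their roles after their values were seen, were at 0.47 and -0.09 (limma, adjusted p = 0.646 and 0.883).

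In the SLC12 family, 4 further cotransporters of 7 were tested, 3 higher and 1 lower (median 0.06), none with an unadjusted P below 0.05 in limma. Slc12a3 had the largest difference, 0.24 (limma, adjusted p = 0.766). NS rats 8 and 9, those of slide 3, were at 6.67 and 6.63 for Slc12a3, and the other rats at 7.59 to 8.36. Without slide 3 its difference was -0.38, with an unadjusted P below 0.05 in limma. The potassium-chloride cotransporter gene Slc12a4, named after its value was seen, was at 0.11 (limma, adjusted p = 0.618).

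Of the kinases and partners of the chloride cotransporters, 21 of 23 were tested, 12 higher and 9 lower (median 0.05), with 1 in each direction at an unadjusted P below 0.05 in limma. Grik2, the kainate receptor subunit that binds KCC2, ran from 8.82 to 9.13 in MT rats and from 8.34 to 8.74 in NS rats, a difference of 0.47 (limma, adjusted p = 0.0980), which was 0.22 within slide 2. Prkcd, a protein kinase C, was at -0.36 (limma, adjusted p = 0.232). The kinases Stk39 and Oxsr1, which phosphorylate NKCC1 and KCC2, were at 0.05 and -0.09 (limma, adjusted p = 0.872 and 0.542). Prkcd, Stk39 and Oxsr1 were named after their values were seen.

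**Figure D5:**
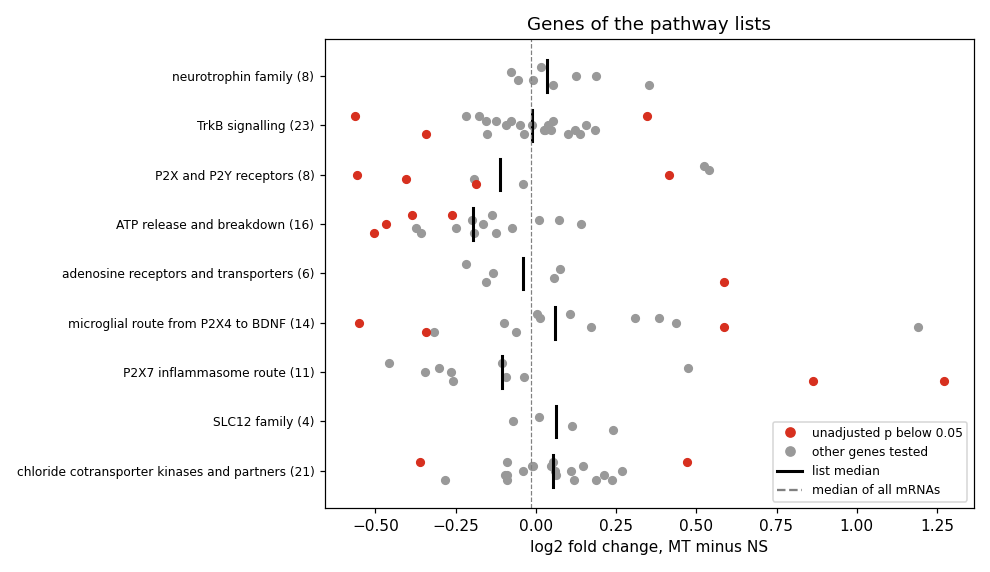
Log2 fold change (MT minus NS) of each tested gene in 9 pathway lists, 1 row per list with the number of genes in brackets, red points for an unadjusted limma P below 0.05, grey points for the others, black bars for list medians and a dashed line for the median of all mRNAs. The medians of 8 lists lie between -0.11 and 0.06, that of ATP release and breakdown is -0.20, and no point passed the adjusted threshold.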

How the data were processed

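One-colour rat lncRNA arrays measured the lumbar enlargement RNA of 5 MT and 5 NS rats, 1 rat per array, with probes along an older genome build (rn4). The authors extracted the spots with Agilent Feature Extraction 11.0.1.1 and deposited background-subtracted intensities on a linear scale, with flags, and a table of quantile-normalized log2 values, which served as an alternative.

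Intensities were floored at 1 (the lowest was 1.71, so none changed), log2 transformed and quantile normalized (R 4.3.3 with limma 3.58.1 and data.table, version 1.17.8). Spots flagged as outliers were dropped, and spots and probes of an accession were averaged. RNAs with more than 50% of spots well above background on at least 5 arrays were kept. These values correlated with the deposited log2 values at r = 0.993 to 0.999 per array. No sample was excluded. RefSeq on GRCr8 named 14274 of 15323 mRNA probes, and positions are those of genes.

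MT and NS were compared by limma with empirical Bayes moderation over 20284 RNAs, with Benjamini-Hochberg adjustment over all of them, and single values by two-sided exact permutation. The study's criterion was read as a linear fold above 1.5. The members and lists were chosen with earlier results of these data known. Named were all members, up to 4 genes per list past the adjusted threshold or the criteria, otherwise the gene with the largest difference, and the 2 mRNAs most like Bdnf and P2rx4. Exceptions are marked. Alternatives were scaling to the 75th percentile, normexp (offset 50) on median signals and backgrounds, other filters, the methods' t-test, a variance trend, probes singly, the slide as a block or slide 3 left out, and each rat left out. The limma fit alone was tested on simulated data, which held no slide differences. Plots were made in Python 3.11.15 (matplotlib 3.10.9).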

Additional observations from a re-analysis of the deposited data

Results flagged for a closer look

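Of 38 sets of 5 values, each a member or named list gene in 1 group, 3 had 1 rat far from the other 4, judged by its gap to the nearest rat as a share of the range (critical value 0.71), a rule that chance meets in about 1 of 20 sets. Bdnf in the MT group had a gap of 0.862 of the range, with MT rat 5 at 6.16 and the others at 5.49 to 5.58. Il1a in the NS group had 0.777, with NS rat 10 at 5.57 and the others at 7.42 to 7.96. Il1rn in the NS group had 0.738, with the same NS rat 10 at 8.68 and the others at 9.60 to 9.93.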

How the results depend on the processing

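In each of 22 alternatives, 0 member mRNAs passed the adjusted threshold and 0 met the fold and P criteria. The number of members with an unadjusted P below 0.05 was 2 with all arrays, 0 with the slide as a fixed block, 3 with 75th percentile scaling (Bdnf entered), 3 without slide 3 (Bdnf and P2rx7 entered and P2rx4 left), and 1 to 2 when 1 rat was left out. Over all RNAs, 3323 of 20284 were below 0.05 with all arrays, 839 with the fixed block and 3630 with 75th percentile scaling. Without slide 3 there were 3707 of 20280, and 2248 to 3742 when 1 rat was left out. Of the pathway genes, 0 passed the adjusted threshold with all arrays and 1, Slc17a9, with normexp (0 to 1 without 1 rat, the 1 without NS rat 10). The number meeting the criteria was 4, and it was 0 with the fixed block, 2 with the random block, 2 with normexp, 2 with the methods' t-test and 1 to 6 without 1 rat (2 without MT rat 1 and 1 without MT rat 4). With an unadjusted P below 0.05 there were 19, against 4 with the fixed block and 10 with the random block. Over all 20284 RNAs these counts were 3323, 839 and 1421, so that the fall was not particular to the pathway genes. The fixed block takes its difference from slide 2, with 1 MT and 3 NS arrays.

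NM_012731 of Ntrk2 kept its direction throughout (0.19 to 0.47, unadjusted P below 0.05 in 21 of 22), as did P2rx4 (-0.62 to -0.31, in 16 of 22) and Bdnf (0.08 to 0.41, in 2 of 22, those with 75th percentile scaling and without slide 3). The exception for NM_012731 was the slide as a fixed block, with a difference of 0.19. The alternatives share arrays, and most leave the overlap of group and slide as it is. The adjusted p of NM_012731 ran from 0.0805 to 1.00 and that of P2rx4 from 0.117 to 1.00. The sign turned for NM_001163168 with the fixed block (0.0375), for P2rx3 with 75th percentile scaling (0.0717), with the fixed block (0.0371), without slide 3 (0.0322) and without MT rat 3 or NS rat 6 (-0.116 to 0.0646 without 1 rat), for P2rx7 with 75th percentile scaling (0.20) and without NS rat 10 (-0.292 to 0.0586 without 1 rat), for P2ry1 with normexp (-0.00735), the fixed block (-0.0168), the random block (-0.0105) and without NS rat 7 (-0.0253 to 0.0930 without 1 rat), and without slide 3 for P2ry6 (-0.11), Ntf4 (-0.0159) and Slc12a3 (-0.38). The cause was not tested. P2rx7 has no value under the filter on all 10 arrays. No paired analysis was possible because the groups share no rat numbers. Signal over background limits Bdnf and P2rx7, the dimmest members, and 5 arrays per group limit every value. The microglial marker median and the gap between the Ntrk2 accessions (0.15 to 0.55) were put through the alternatives after the data were seen.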
